A study of Mus musculus with 8 samples.

Results

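The Slc25 genes encode the mitochondrial carrier family, and their transcripts were followed here in the quadriceps of mice that had received the chemotherapy regimen Folfiri or vehicle alone. The family was taken as every gene of the deposited table whose symbol is Slc25a followed by a number, without Slc25a4, Slc25a5 and Slc25a20. This rule found 36 of the 12896 listed genes, and all 36 had enough reads to be tested, the least covered (Slc25a53) with 110 reads in total. The 4 Folfiri mice and the 4 Vehicle mice were CD2F1 males, 8 weeks old at the start. Folfiri mice were injected intraperitoneally with 5-fluorouracil at 30 mg/kg, leucovorin at 90 mg/kg and CPT-11 (irinotecan) at 24 mg/kg, 2 doses a week for up to 5 weeks, and Vehicle mice with the same volume of vehicle. 5-Fluorouracil blocks thymidylate synthesis, leucovorin is a folate that strengthens this block, and CPT-11 inhibits topoisomerase I. Each library came from 1 animal.

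Most mitochondrial carriers are small proteins that cross the inner mitochondrial membrane several times, and many exchange 1 solute for another. Through them phosphate, nucleotides, carboxylic acids, amino acids, cofactors and metal ions pass between the cytosol and the matrix. In skeletal muscle the phosphate carrier feeds ATP synthesis, and the aspartate-glutamate and oxoglutarate carriers form the membrane part of the malate-aspartate shuttle, which brings the reducing power of cytosolic NADH into the matrix. Other members are used mainly by liver, fat, kidney or brain.

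Total counts were 11921092 to 21056818 reads in Folfiri and 8505985 to 16303015 reads in Vehicle libraries. Levels are given in CPM, read counts brought to 1 common library size with TMM factors, and a log2 fold change is Folfiri over Vehicle. Transcripts of 6 muscle fibre markers summed to 93255 to 165089 CPM in Folfiri and 103161 to 169855 CPM in Vehicle libraries. Transcripts of other cells were also present, and unevenly. Summed over 8 hepatocyte markers, Folfiri 1 to 4 held 240, 74.2, 12.7 and 7.10 CPM and Vehicle libraries 0.402 to 9.36 CPM, with 7 of these markers at 0 reads in at least 1 library. Summed over 5 adipocyte markers, Folfiri libraries held 178 to 488 CPM and Vehicle libraries 206 to 1454 CPM, and over 4 brown adipocyte markers 1.95 to 4.82 CPM and 1.57 to 368 CPM, the highest value of either list being that of Vehicle 2. Macrophage markers, 4 in number, summed to 62.0 to 76.2 CPM in Folfiri and 34.3 to 55.5 CPM in Vehicle. In bulk muscle, fewer cells of a type and less RNA per cell cannot be told apart. Folfiri 1, with the most hepatocyte transcripts, was the highest library for 14 of the 36 carriers and the lowest for 7, and Vehicle 2, with the most adipocyte transcripts, was the highest for 8. Where leaving out either library took the unadjusted p of a carrier over 0.05, the value without it is given.

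Carrier transcripts spanned a wide range in this muscle. Per kb of gene model, the phosphate carrier Slc25a3 stood highest at 679 ± 140 CPM per kb (SD over all 8 libraries). Slc25a12, an aspartate-glutamate carrier, followed at 205 ± 41.6 CPM per kb and the oxoglutarate carrier Slc25a11 at 200 ± 21.6 CPM per kb, with ranges that overlapped. All 3 lay far above Slc25a39 (30.5 ± 3.79 CPM per kb), which takes glutathione into mitochondria, and Slc25a39 lay above Slc25a46 (18 ± 4.10 CPM per kb). Slc25a39 and Slc25a46 did not overlap in any library. From the fifth place down no gene stood beyond the range of the next, to Slc25a13 (0.371 ± 0.195 CPM per kb), the aspartate-glutamate carrier that liver uses, and Slc25a53 (0.286 ± 0.174 CPM per kb), whose substrate is little described. The 3 leading carriers held 61.6% of the summed carrier CPM in Folfiri 1, 72.1% to 74.1% in the other Folfiri libraries and 74.5% to 77.4% in Vehicle libraries. By CPM every Folfiri library thus gave the 3 leading carriers a smaller share than every Vehicle library, with Folfiri 3 and Vehicle 2 less than 1 percentage point apart. By CPM per kb the shares overlapped, at 71.6% to 81.1% in Folfiri and 81.0% to 84.2% in Vehicle, with Folfiri 4 just above Vehicle 3. The summed carrier CPM itself overlapped, at 2179 to 2956 CPM in Folfiri and 2524 to 3165 CPM in Vehicle.

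**Figure D1:**
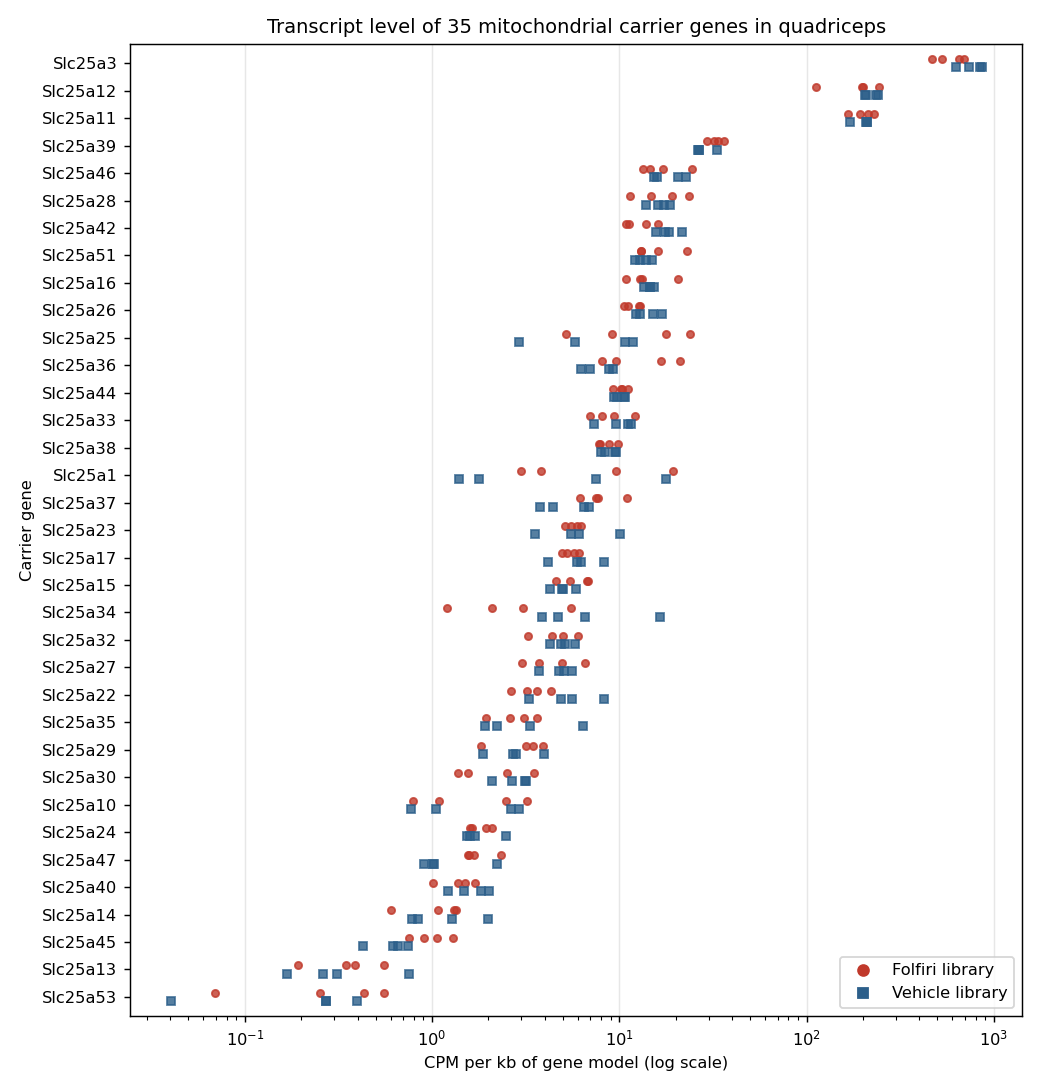
Level of 35 of the 36 carrier genes in CPM per kb of gene model on a log axis, with 1 point per library (red circles, Folfiri; blue squares, Vehicle) and genes ordered by their mean over all 8 libraries. Slc25a3 leads at 679 CPM per kb, Slc25a12 and Slc25a11 follow at 205 and 200, and the lowest 3 genes stay under 1 CPM per kb on average.

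None of the 36 carriers passed the threshold for a difference between Folfiri and Vehicle muscle. By edgeR's quasi-likelihood test, with p-values adjusted over 12883 genes, 0 carriers were called and the lowest adjusted p among them was 0.434. The same test called 1 gene of all those tested, or 0.00776%. Tests that called more genes added no carrier. They gave 0 of 36 by edgeR's exact test (0.668% of all genes called) and 0 by its likelihood ratio test (0.784%). DESeq2 (0.598%) and limma voom with sample quality weights (0.0233%) gave 0 as well. At an unadjusted p under 0.05, 2 carriers were higher in Folfiri, Slc25a36 and Slc25a37, where 5.48% of all genes tested were. Likewise 3 carriers were lower, Slc25a34, Slc25a42 and Slc25a22, where 4.02% of all genes tested were. These 5 of 36 carriers are to be read against 9.5% of all genes. Of the log2 fold changes, 16 were positive and 20 negative, against 51.4% and 48.6% of all genes, and their median was −0.02, against 0.01 for all genes. The median size of the change regardless of sign was 0.23 for the carriers and 0.20 for all genes tested. The plot of log2 fold changes by role places the carriers on both sides of 0 in 6 of 8 role groups.

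**Figure D2:**
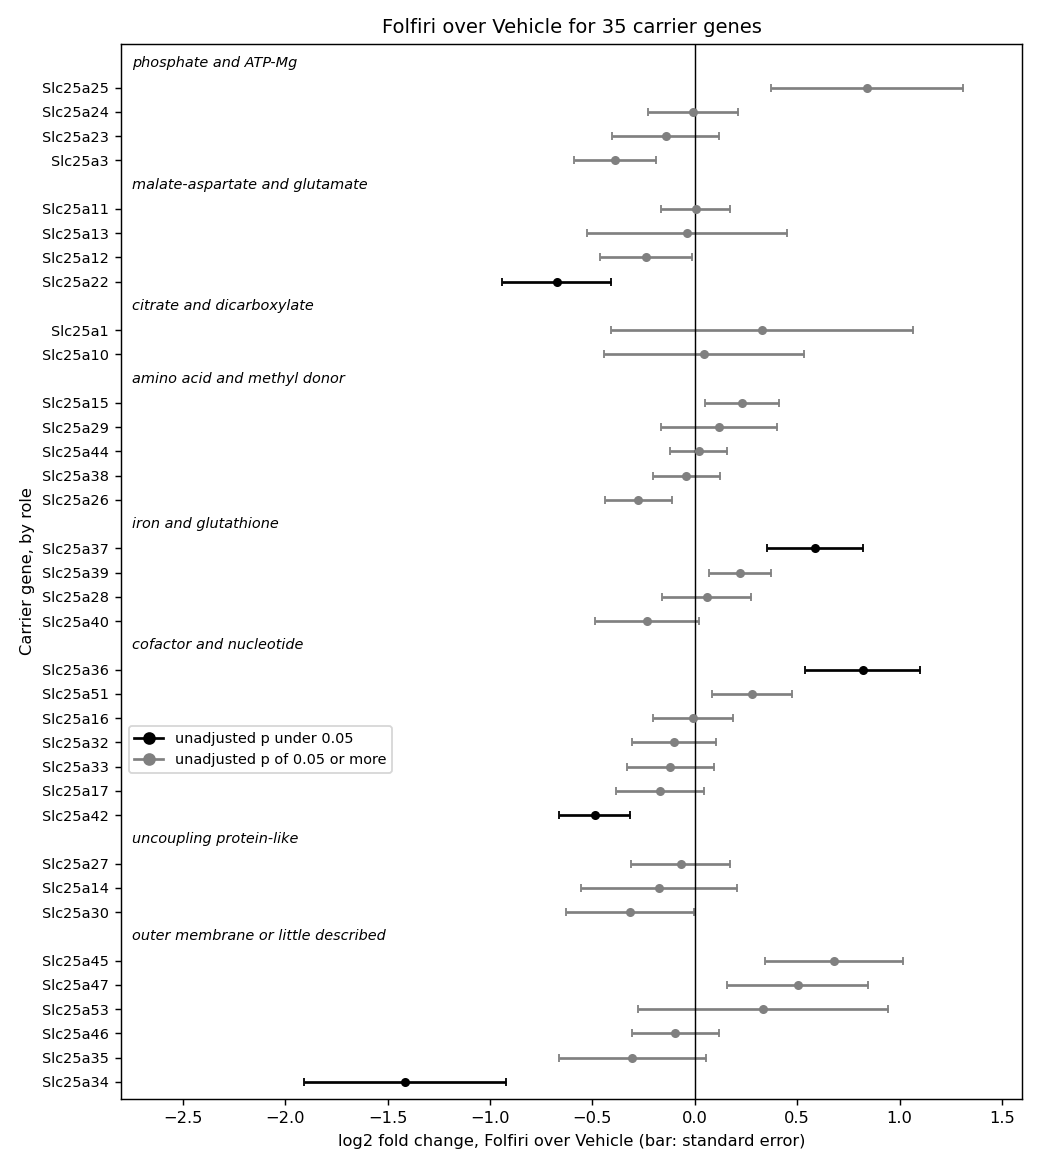
Log2 fold change of Folfiri over Vehicle for 35 of the 36 carriers, grouped by role, with bars for the standard error of the fit (n = 4 libraries per group). Black marks the 5 genes with an unadjusted p under 0.05 (Slc25a37 and Slc25a36 higher; Slc25a22, Slc25a42 and Slc25a34 lower), and no gene passed after adjustment.

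Slc25a3 imports the phosphate from which ATP synthase makes ATP, and its gene lies on chromosome 10 of mm9 from 90579323 to 90586708. It stood at 704, 804, 1055 and 991 CPM in Folfiri 1 to 4 and at 1307, 1282, 956 and 1113 CPM in Vehicle 1 to 4. Folfiri 1 and 2 lay below every Vehicle library, while Folfiri 3 and 4 lay within the Vehicle range. Its log2 fold change was −0.39 (standard error 0.20, 95% interval −0.88 to 0.10, adjusted p = 0.554), which does not pass the threshold and does not show equal levels either. The unadjusted p was 0.0756, and was under 0.05 only by DESeq2 (0.0311) and without Folfiri 3 (0.0495). The calcium-regulated carriers Slc25a23, Slc25a24 and Slc25a25 exchange ATP-Mg for phosphate and so set the adenine nucleotide content of the matrix. Slc25a25 had the largest positive log2 fold change of the family, 0.84 (standard error 0.47, adjusted p = 0.583), and one of its widest spreads. It held 22, 39.0, 101 and 75.7 CPM in Folfiri 1 to 4 and 49.9, 24.4, 12.3 and 45.4 CPM in Vehicle 1 to 4, so that Folfiri 3 and 4 stood above all Vehicle libraries and Folfiri 1 below 3 of them. Without Folfiri 1 the value was 1.11 (unadjusted p = 0.0254), and without Folfiri 3 it was 0.46. Slc25a23 and Slc25a24 had log2 fold changes of −0.14 and −0.01.

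No carrier of the malate-aspartate shuttle passed the test. Slc25a12 held 329, 577, 710 and 583 CPM in Folfiri 1 to 4 and 700, 683, 611 and 599 CPM in Vehicle 1 to 4. Only Folfiri 1 stood apart, at a level below all other libraries, and the difference did not pass the test (log2 fold change −0.24, standard error 0.23, adjusted p = 0.756), with a value of −0.06 when it was left out. Slc25a11, which exchanges oxoglutarate for malate, held 309, 359, 426 and 395 CPM in Folfiri and 385, 391, 319 and 390 CPM in Vehicle. The groups overlapped fully (log2 fold change 0.00, standard error 0.17, 95% interval −0.41 to 0.42, adjusted p = 0.995). Slc25a13 held 0.602 to 1.73 CPM in Folfiri and 0.523 to 2.34 CPM in Vehicle. Of the enzymes that work with these carriers and with the glycerol phosphate shuttle, 0 of 6 had an unadjusted p under 0.05 (9.5% of all genes had), 5 had a negative and 1 a positive log2 fold change, and the median was −0.31. Mdh1, the cytosolic malate dehydrogenase, stood at 348 CPM in Folfiri 1, at 879 to 893 CPM in the other Folfiri libraries and at 828 to 1295 CPM in Vehicle, and its mitochondrial partner Mdh2 at 368 CPM, 817 to 878 CPM and 749 to 959 CPM. Folfiri 1 was thus the low library for these enzymes as for Slc25a12. The smallest p of this list was that of Gpd2, the mitochondrial glycerol phosphate dehydrogenase, at 191, 329, 258 and 420 CPM in Folfiri and 451, 313, 457 and 428 CPM in Vehicle (log2 fold change −0.46, adjusted p = 0.559).

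Ratios of 2 carriers within a library do not depend on the scaling between libraries, and 6 such ratios were formed after the levels had been seen. Slc25a3 over Slc25a11 was 2.28, 2.24, 2.48 and 2.51 in Folfiri 1 to 4 and 3.39, 3.28, 3.00 and 2.86 in Vehicle 1 to 4. All Folfiri ratios lay below all Vehicle ratios, although neither gene alone separated the groups, and the means were 2.37 ± 0.136 and 3.13 ± 0.247 (SD, n = 4 each). Slc25a12 over Slc25a11 overlapped, at 1.07 to 1.67 in Folfiri and 1.54 to 1.92 in Vehicle. So did Slc25a37 over Slc25a28 (0.713 to 1.82 in Folfiri and 0.591 to 1.26 in Vehicle), Slc25a12 over Slc25a13 (306 to 968 and 292 to 1168) and Slc25a25 over Slc25a23 (1.04 to 5.09 and 0.599 to 4.20). In the sixth, Slc25a36 over Slc25a33, all Folfiri ratios lay above all Vehicle ratios, but barely, with Folfiri 4 at 1.405 and Vehicle 3 at 1.4. A ratio that separates the groups does not tell which of the 2 transcripts differs. As the pairs were picked with the values known, no test is given, and how often other pairs of carriers separate was not counted.

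**Figure D3:**
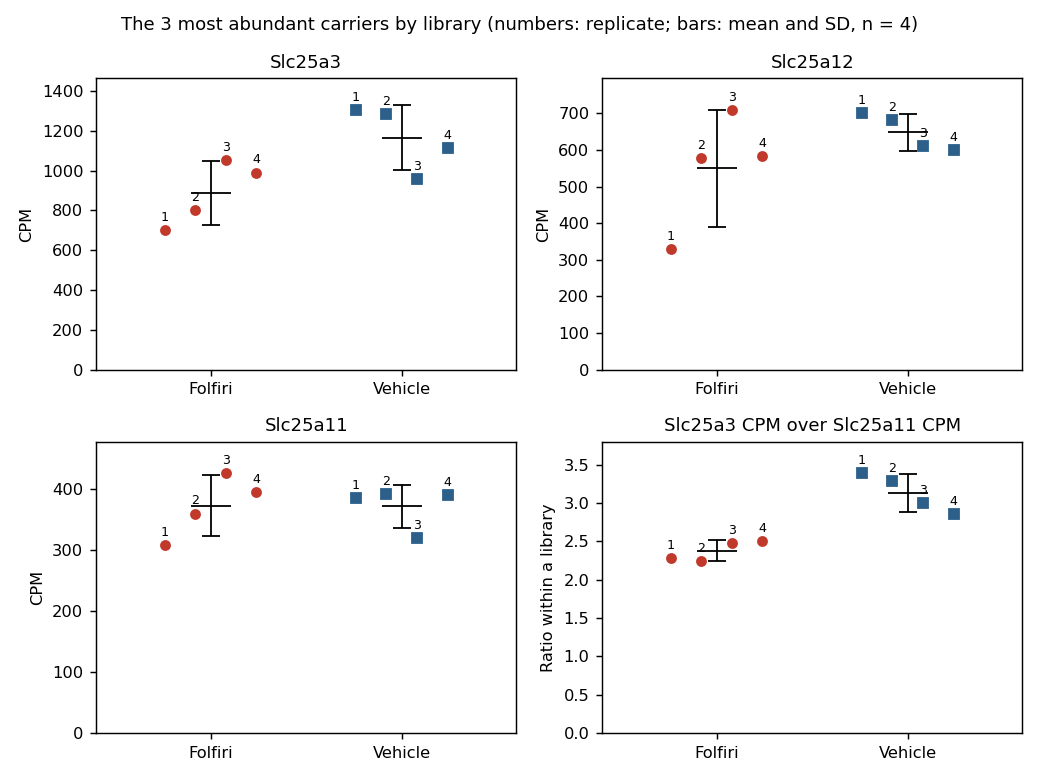
CPM of Slc25a3, Slc25a12 and Slc25a11 in each library and, at the lower right, the ratio of Slc25a3 to Slc25a11 within each library. Points carry the replicate number and bars give the mean and SD of 4 libraries. Only the ratio, picked after the levels had been seen, keeps Folfiri (2.24 to 2.51) apart from Vehicle (2.86 to 3.39).

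Among the cofactor and nucleotide carriers, Slc25a36 was the higher gene with the smallest p of the family. It exchanges pyrimidine nucleotides across the inner membrane and lies on chromosome 9 of mm9 from 96977430 to 97011460. It stood at 64.3, 51.3, 29.3 and 24.6 CPM in Folfiri 1 to 4 and at 27.1, 28.3, 19.2 and 21.3 CPM in Vehicle 1 to 4. Folfiri 1 and 2 were above every Vehicle library, Folfiri 3 was just above them and Folfiri 4 fell among them. The fold was 1.76 (log2 fold change 0.82, standard error 0.28, unadjusted p = 0.0130, adjusted p = 0.434), and without Folfiri 1 it was 0.55 on the log2 scale (unadjusted p = 0.0518). The order of the Folfiri libraries in Slc25a36 was also their order in the 8 hepatocyte markers (240, 74.2, 12.7 and 7.10 CPM). It was not particular to these. Slc25a46, with a log2 fold change of −0.09, had the same order (108, 74.9, 63.8 and 58.2 CPM). The 6 muscle fibre markers had the reverse order (93255, 113386, 134334 and 165089 CPM). The part of liver transcripts in the Slc25a36 difference was not tested. Slc25a33, the other pyrimidine nucleotide carrier, did not follow: it held 22.8, 13.1, 15.2 and 17.5 CPM in Folfiri and 20.8, 21.8, 13.7 and 17.9 CPM in Vehicle (log2 fold change −0.12). The ratio of Slc25a36 to Slc25a33 was 2.81, 3.93, 1.93 and 1.40 in Folfiri 1 to 4 and 1.30, 1.30, 1.40 and 1.19 in Vehicle 1 to 4. Folfiri 4 was barely above Vehicle 3.

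Slc25a42, on chromosome 8 of mm9 from 72708239 to 72736180, imports coenzyme A and spread least among the 3 carriers that were lower at an unadjusted p under 0.05. Its 34.6, 44.1, 35.9 and 51.1 CPM in Folfiri 1 to 4 stood against 49.7, 68.9, 55.8 and 58.4 CPM in Vehicle 1 to 4. Only Folfiri 4 and Vehicle 1 crossed, and by little. The log2 fold change was −0.49 (standard error 0.17, unadjusted p = 0.0158, adjusted p = 0.434), and it stayed between −0.61 and −0.40 when any 1 library was left out. The unadjusted p was 0.0516 without Vehicle 2 and 0.0681 with library totals as the only scaling, and without both Folfiri 1 and Vehicle 2 the value was −0.32 (unadjusted p = 0.0842). Slc25a16, which is also linked to coenzyme A, held 34.1 to 64.6 CPM in Folfiri and 42.5 to 48.3 CPM in Vehicle, with a log2 fold change of −0.01. The NAD+ carrier Slc25a51 held 102, 57.7, 71.5 and 58.3 CPM in Folfiri and 61.4, 66.3, 57.0 and 53.6 CPM in Vehicle. It was highest in Folfiri 1 and overlapped otherwise, with a log2 fold change of 0.28 (adjusted p = 0.668) that was 0.07 without that library. Slc25a32, a carrier of folate and flavin, held 9.57 to 17.8 CPM in Folfiri and 12.6 to 17 CPM in Vehicle, and the peroxisomal carrier Slc25a17 held 8.24 to 10.1 CPM and 6.97 to 13.8 CPM.

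Iron and glutathione carriers were set side by side because both bear on the synthesis of haem and of iron-sulphur clusters. Mitoferrin 1, the product of Slc25a37 on chromosome 14 of mm9 from 69859908 to 69903160, is the iron importer of developing red cells, and Slc25a28 encodes mitoferrin 2, which other tissues use. Slc25a37 stood at 45.9, 31.2, 25.7 and 32.0 CPM in Folfiri 1 to 4 and at 28.6, 15.7, 18.3 and 27 CPM in Vehicle 1 to 4. Folfiri 1, 2 and 4 lay above every Vehicle library and Folfiri 3 below 2 of them. The fold was 1.5 (log2 fold change 0.59, standard error 0.24, unadjusted p = 0.0281, adjusted p = 0.486), at 0.40 (unadjusted p = 0.0963) without Folfiri 1, 0.45 (unadjusted p = 0.0787) without Vehicle 2 and 0.50 (unadjusted p = 0.0755) without Vehicle 3. The 3 erythroid markers tested summed to 12.9 to 87.9 CPM in Folfiri and 56.2 to 113 CPM in Vehicle, most of it from Hbb-b1, a haemoglobin gene. The markers did not move together. Hbb-b1 had a log2 fold change of −1.09 (adjusted p = 0.514), and Alas2, which starts haem synthesis in red cells, one of −0.03, both with overlapping groups. Slc4a1, the anion exchanger of red cells, had all Folfiri above all Vehicle libraries, as in 2.87% of all genes. It held 3.09, 0.868, 1.51 and 1.00 CPM in Folfiri 1 to 4 and 0, 0.161, 0 and 0.322 CPM in Vehicle 1 to 4. The part of red cell transcripts in the Slc25a37 difference was not tested. Slc25a28 held 17.5 to 36 CPM in Folfiri and 21.4 to 28.8 CPM in Vehicle, with a log2 fold change of 0.06. Slc25a39 held 59.9, 48.7, 56.2 and 53.2 CPM in Folfiri and 44.1, 54.9, 44.1 and 43.9 CPM in Vehicle. Every Folfiri library exceeded 3 of the Vehicle libraries, and Vehicle 2 alone closed the gap (log2 fold change 0.22, standard error 0.15, adjusted p = 0.655). Without Vehicle 2 the value was 0.31 (unadjusted p = 0.0749). Its close relative Slc25a40 had a log2 fold change of −0.23, with 2.86 to 4.81 CPM in Folfiri and 3.46 to 5.74 CPM in Vehicle.

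Slc25a22, the mitochondrial glutamate carrier on chromosome 7 of mm9 from 148615648 to 148623773, and Slc25a34, a carrier of little described substrate on chromosome 4 from 141174740 to 141179749, were lower in Folfiri at an unadjusted p under 0.05. Slc25a34 had the largest negative log2 fold change of the family. It held 3.23, 8.24, 14.8 and 5.62 CPM in Folfiri 1 to 4 and 10.4, 44.1, 12.7 and 17.6 CPM in Vehicle 1 to 4. Vehicle 2 stood far above all other libraries, and the remaining values overlapped at Folfiri 3. The log2 fold change was −1.42 (standard error 0.49, unadjusted p = 0.0138, adjusted p = 0.434), and −0.77 (unadjusted p = 0.0794) without Vehicle 2. Slc25a22 held 7.54, 9.20, 10.4 and 12.3 CPM in Folfiri and 9.36, 23.6, 14 and 16 CPM in Vehicle. Vehicle 2 was again the highest, Vehicle 1 fell among the Folfiri libraries, and the log2 fold change of −0.68 (standard error 0.27, unadjusted p = 0.0254, adjusted p = 0.471) was −0.41 (unadjusted p = 0.118) without Vehicle 2, −0.57 (unadjusted p = 0.0687) without Folfiri 1 and −0.64 (unadjusted p = 0.0589) without Folfiri 2. Vehicle 2 was the library with 368 CPM of brown adipocyte markers and 1454 CPM of adipocyte markers, and the part of these transcripts in both differences was not tested.

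**Figure D4:**
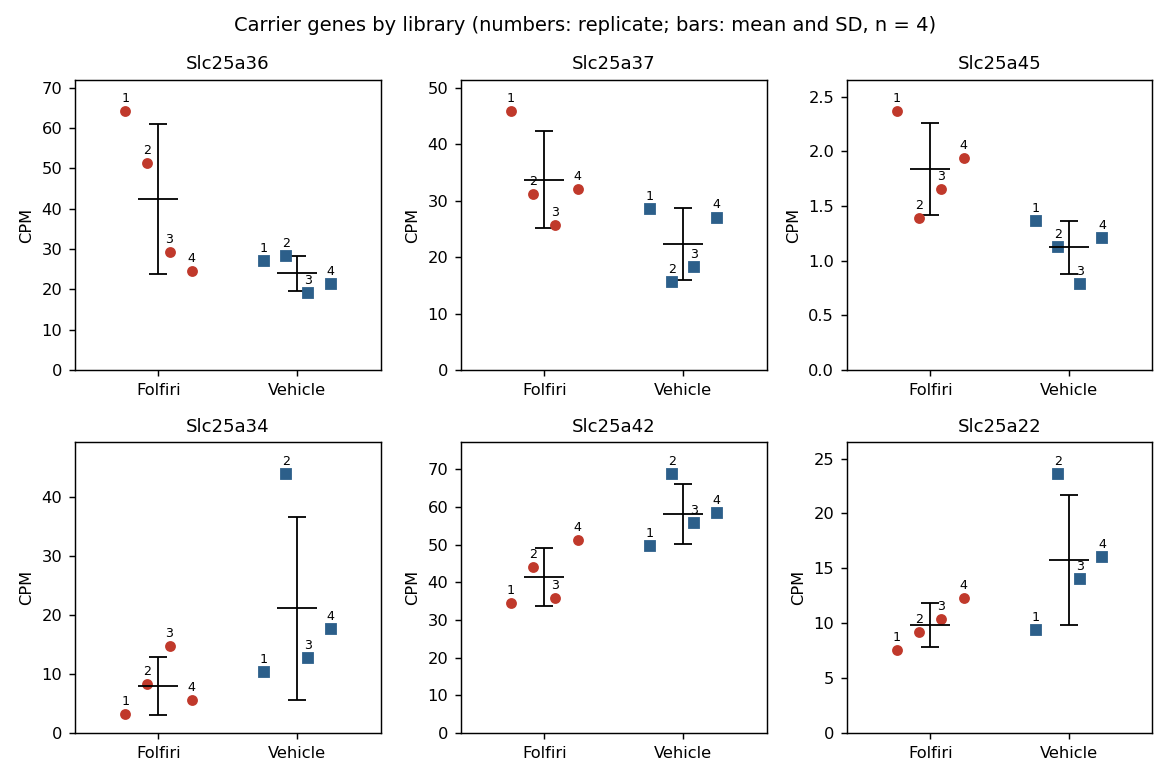
CPM in each library for the 5 carriers with an unadjusted p under 0.05 and for Slc25a45, with points numbered by replicate and bars for the mean and SD of 4 libraries per group. Folfiri 1 is the highest point in Slc25a36, Slc25a37 and Slc25a45, Vehicle 2 is the highest in Slc25a34, Slc25a42 and Slc25a22, and only Slc25a45 has no overlap.

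The 250 bases before the annotated start of 4 genes are shown because they are the carriers with the 4 smallest p-values, 1 of them higher and 3 lower in Folfiri. All 4 lie on the minus strand of mm9, and each window is written 5′ to 3′ in the direction of transcription. Capitals mark the letters CCAAT, those of the GC box (GGGCGG) and those of the E-box (CACGTG) on either strand, and no 2 marked matches overlap. The windows are chr9:97011461-97011710 for Slc25a36, chr4:141179750-141179999 for Slc25a34, chr8:72736181-72736430 for Slc25a42 and chr7:148623774-148624023 for Slc25a22.
Slc25a36: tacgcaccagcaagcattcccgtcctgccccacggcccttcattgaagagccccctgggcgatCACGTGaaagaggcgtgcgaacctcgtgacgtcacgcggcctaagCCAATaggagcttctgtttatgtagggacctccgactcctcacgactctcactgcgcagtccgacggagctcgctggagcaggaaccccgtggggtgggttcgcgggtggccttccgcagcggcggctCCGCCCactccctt
Slc25a34: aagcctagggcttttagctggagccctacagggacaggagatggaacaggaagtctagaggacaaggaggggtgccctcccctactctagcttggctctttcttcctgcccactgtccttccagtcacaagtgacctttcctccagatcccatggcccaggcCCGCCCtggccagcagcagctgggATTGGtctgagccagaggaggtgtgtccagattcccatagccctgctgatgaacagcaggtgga
Slc25a42: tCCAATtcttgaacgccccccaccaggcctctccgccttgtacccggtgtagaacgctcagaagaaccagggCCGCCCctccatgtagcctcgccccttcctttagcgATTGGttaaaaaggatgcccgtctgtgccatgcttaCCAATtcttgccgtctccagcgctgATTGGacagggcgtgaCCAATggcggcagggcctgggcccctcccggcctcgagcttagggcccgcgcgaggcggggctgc
Slc25a22: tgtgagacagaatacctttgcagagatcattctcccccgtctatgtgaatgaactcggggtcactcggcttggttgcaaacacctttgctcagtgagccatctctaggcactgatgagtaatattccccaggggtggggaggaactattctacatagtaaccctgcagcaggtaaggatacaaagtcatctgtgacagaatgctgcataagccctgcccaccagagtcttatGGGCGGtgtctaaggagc
The Slc25a42 window holds 5 CCAAT boxes and 1 GC box, and the Slc25a36 window 1 match of each motif. The Slc25a22 window holds a single GC box, 13 to 18 bases before the start, and has 4 CpG sites against 24 in Slc25a36. Over the whole family CCAAT occurred in 19 of 36 windows (52.8%) against 34.8% of 12873 windows of the same length before listed genes, GGGCGG in 24 (66.7% against 59%) and CACGTG in 9 (25% against 8.35%). The longer motifs were scarce. TNAAGGTCA, an oestrogen-related receptor half-site, was in 0 windows (0.66% of all), and GTAAACA, a FoxO site, in 0 (2.07% of all). The site of nuclear respiratory factor 1 was found before Slc25a3 alone (8.04% of all) and TCACNCCAC, a sterol regulatory element, before Slc25a26 alone (0.955% of all). Of the 4 genes shown, CCAAT thus stood before Slc25a36, Slc25a34 and Slc25a42, and the GC box before each. All motifs were searched on both strands, and a match is a description of the sequence only.

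The citrate carrier Slc25a1 and the dicarboxylate carrier Slc25a10 supply carbon and reducing power to fat synthesis, and their levels differed widely between animals of 1 group. Slc25a1, named after its values were seen, held 5.03, 6.38, 32.5 and 16.2 CPM in Folfiri 1 to 4 and 3.01, 29.9, 12.6 and 2.33 CPM in Vehicle 1 to 4, a 13.9-fold range. Slc25a10, likewise, held 3.16, 4.34, 12.8 and 9.91 CPM in Folfiri and 3.07, 11.6, 10.6 and 4.18 CPM in Vehicle. Both were high in Folfiri 3 and 4 and Vehicle 2 and 3 and low in the other 4 libraries. The 5 adipocyte markers split the libraries in the same way, with 208, 178, 488 and 372 CPM in Folfiri 1 to 4 and 206, 1454, 662 and 245 CPM in Vehicle 1 to 4. Between Folfiri and Vehicle the log2 fold changes were 0.33 (standard error 0.74, adjusted p = 0.907) for Slc25a1 and 0.05 (standard error 0.49, adjusted p = 0.984) for Slc25a10, and the sign of both turned when single libraries were left out. Slc25a35, a relative of Slc25a34 also named after its values were seen, held 4.74, 5.68, 6.63 and 3.55 CPM in Folfiri and 3.48, 11.7, 4.05 and 6.11 CPM in Vehicle, and was highest in Vehicle 2 as Slc25a34 was. The part of fat in the levels of these genes was not tested.

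**Figure D5:**
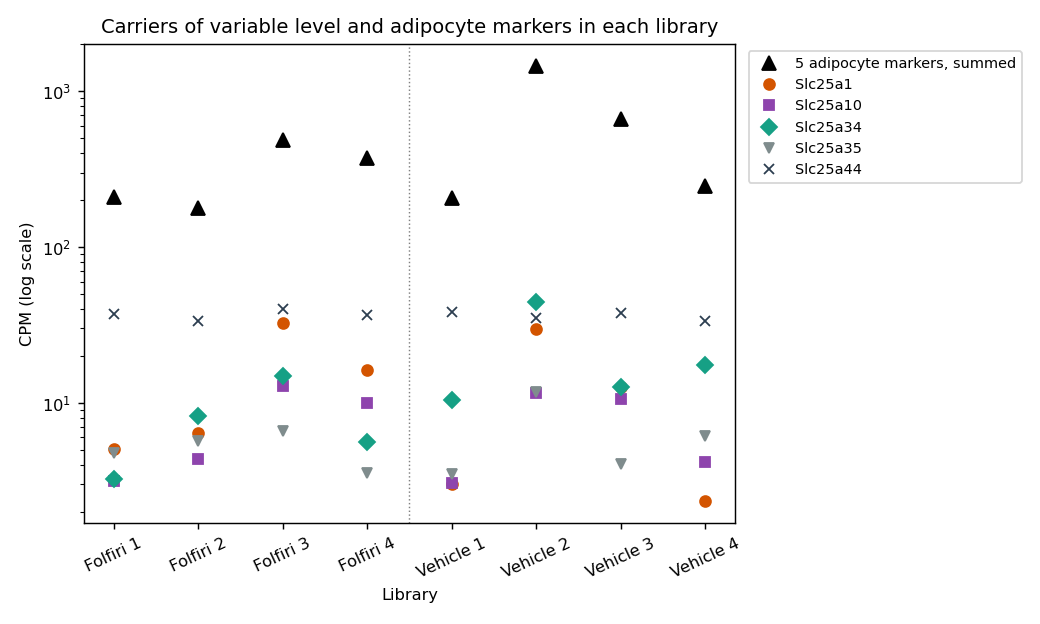
CPM on a log axis in each of the 8 libraries for the sum of 5 adipocyte markers (black triangles), for Slc25a1, Slc25a10, Slc25a34 and Slc25a35, and for the steady Slc25a44. Slc25a1 and Slc25a10 are high in the same 4 libraries as the adipocyte markers (Folfiri 3 and 4, Vehicle 2 and 3), while Slc25a44 stays between 33.3 and 40 CPM throughout.

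Slc25a44 and Slc25a38, both carriers of amino acids, were the steadiest members of the family. Others of this role varied more, up to a 2.17-fold range in Slc25a29. Slc25a44, which carries branched-chain amino acids, held 33.3 to 40 CPM in Folfiri and 33.7 to 38.4 CPM in Vehicle, a 1.20-fold range over 8 animals. Slc25a38, which supplies glycine for haem synthesis, held 12.4 to 15.6 CPM in Folfiri and 12.6 to 15.2 CPM in Vehicle, a 1.26-fold range. Slc25a26 imports S-adenosylmethionine and held 20.3 to 24.7 CPM in Folfiri and 23.6 to 32.4 CPM in Vehicle (log2 fold change −0.28, standard error 0.16, adjusted p = 0.599). The ornithine carrier Slc25a15 held 15.8 to 23.5 CPM and 14.6 to 20.3 CPM, with a log2 fold change of 0.23, and Slc25a29, a carrier of basic amino acids, held 3.59 to 7.69 CPM and 3.66 to 7.80 CPM, with a log2 fold change of 0.12. None of the 5 had an unadjusted p under 0.05.

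The remaining carriers were the relatives of uncoupling proteins and those of the outer membrane or of little described function. Slc25a14, Slc25a27 and Slc25a30 had log2 fold changes of −0.17, −0.07 and −0.32, all with overlapping groups. Slc25a46, a protein of the outer membrane that shapes mitochondria, held 108, 74.9, 63.8 and 58.2 CPM in Folfiri and 99.0, 89.6, 69.6 and 66.6 CPM in Vehicle. The groups overlapped fully (log2 fold change −0.09, standard error 0.21, adjusted p = 0.908), and the sign was positive when libraries were scaled by their totals alone (0.06). Slc25a45, on chromosome 19 of mm9 from 5878466 to 5885768, was the only one of the 36 carriers whose groups did not overlap. It held 2.37, 1.39, 1.66 and 1.94 CPM in Folfiri 1 to 4 and 1.37, 1.13, 0.785 and 1.21 CPM in Vehicle 1 to 4, or 22 to 33 reads against 6 to 20 reads. Folfiri 2 stood above Vehicle 1 by a margin smaller than the worth of 1 read, and the difference did not pass the test (log2 fold change 0.68, standard error 0.34, adjusted p = 0.550). Among all genes tested, 2.87% had all Folfiri libraries above and 2.66% all below, so 1 and 0 carriers of 36 are near the background. Slc25a47, a carrier of liver, held 2.66, 2.47, 2.49 and 3.68 CPM in Folfiri and 1.43, 1.61, 3.53 and 1.61 CPM in Vehicle (log2 fold change 0.50, adjusted p = 0.661). These values rest on 20 to 57 reads a library. Its highest Folfiri value was in Folfiri 4, where the hepatocyte markers summed to 7.10 CPM. In Folfiri 1, where they summed to 240 CPM, it held 2.66 CPM. The part of liver transcripts in the Slc25a47 level was not tested. Slc25a53 held 0.226 to 1.79 CPM in Folfiri and 0.131 to 1.30 CPM in Vehicle, from 1 to 25 reads a library.

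Genes that work with the carriers gave no call either. Carrier proteins are made in the cytosol, held by the TOM complex and small TIM chaperones and inserted by the TIM22 complex, and of 15 tested genes of this route 2 stood higher and 1 stood lower by the unadjusted p (5.48% and 4.02% of all genes tested did), with 0 called and a median log2 fold change of 0.09. Tomm5 and Tomm7, small subunits of the TOM complex, had log2 fold changes of 0.77 (adjusted p = 0.471) and 0.39 (adjusted p = 0.509). The TIM22 subunit Timm29, listed under the symbol 1810026J23Rik, stood at 48.9, 57.8, 60.4 and 67.5 CPM in Folfiri and 89.0, 65.4, 86.3 and 87.3 CPM in Vehicle, with only Folfiri 4 and Vehicle 2 crossing (log2 fold change −0.48, adjusted p = 0.434). Of the most abundant of the route, Timm8b had a log2 fold change of 0.57 (adjusted p = 0.563) and Tomm70a, a receptor for carriers, one of −0.35 (adjusted p = 0.580). Of 21 other channels and transporters of mitochondria, 1 stood higher and 0 lower by that p (again against 5.48% and 4.02% of all genes), 0 were called and the median was −0.09. The higher one was Sfxn2, of the sideroflexin family of serine carriers, at 25.2, 17.6, 7.54 and 20.1 CPM in Folfiri and 3.83, 4.92, 9.94 and 10.4 CPM in Vehicle (log2 fold change 1.29, unadjusted p = 0.00547, adjusted p = 0.381). Folfiri 3 fell among the Vehicle libraries and the other 3 lay above them. Its relative Sfxn4 held 4.38, 4.47, 4.75 and 4.75 CPM in Folfiri and 3.48, 3.39, 3.53 and 3.54 CPM in Vehicle (log2 fold change 0.40, adjusted p = 0.562), with all Folfiri above all Vehicle libraries, as in 2.87% of all genes. The outer membrane channels Vdac1 and Vdac2 were the most abundant, and Vdac1 stood at 562 to 904 CPM in Folfiri, below its 929 to 1077 CPM in Vehicle (log2 fold change −0.31, adjusted p = 0.625; 2.66% of all genes had all Folfiri below), whereas Vdac2 overlapped (−0.01). Of 8 family members that carry other names or were left out of the 36, 3 were lower at an unadjusted p under 0.05, where 4.02% of all genes tested were, and 0 were called. They were Slc25a20, the acylcarnitine carrier (log2 fold change −0.80, adjusted p = 0.286), Ucp3, the uncoupling protein of muscle (−0.66, adjusted p = 0.462), and Ucp1 (−6.45, adjusted p = 0.272). Slc25a20 had all Folfiri below all Vehicle libraries, at 37.5 to 57.7 CPM against 70.2 to 123 CPM, as in 2.66% of all genes. Slc25a4, the ADP/ATP carrier of muscle, was the most abundant of the 8, at 3048, 3085, 3882 and 3578 CPM in Folfiri and 3441, 3093, 3487 and 3728 CPM in Vehicle (log2 fold change −0.02). Ucp1, the uncoupling protein of brown fat, held 251 CPM in Vehicle 2 and 0.431 to 19.2 CPM in the other 7 libraries.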

How the data were processed

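Quadriceps RNA of 4 Folfiri and 4 Vehicle mice was analysed, grouped by the sample titles. The authors made strand-specific SOLiD libraries of poly(A) RNA. Their bfast alignments (mm9, with splice junctions) followed a filter on read quality, rRNA and tRNA, and were counted per RefSeq gene with bamutils. The deposited counts are raw reads per gene, with no scaling, and whether they were counted by strand is not given in the sources used here. The deposited signal columns (counts divided by a library size) and the columns of the authors' own edgeR comparison (log2 fold changes, p-values and false discovery rates) were not used. The table lists 12896 genes, 0 of them on the mitochondrial chromosome.

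The 12883 genes holding 40 reads or more over all 8 libraries, with TMM scaling, were compared by the quasi-likelihood test of edgeR 4.0.16 in R 4.3.3, with Benjamini-Hochberg adjustment over all genes, a threshold of 0.05, 6 residual degrees of freedom and a common coefficient of biological variation of 0.261. The standard error is the size of the log2 fold change over the square root of the test's F value. Intervals of 95% were formed from it and the residual degrees of freedom. The test also adds prior degrees of freedom, so these intervals are wider than its p-values imply. Per-kb levels used the deposited gene length. Replicates correlated at 0.948 to 0.978 on the log2 scale (prior count 2). Promoter windows were read from the mm9 genome at the deposited gene ends.

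Given in every library were the 8 most abundant carriers, those with an unadjusted p under 0.05 or without overlap, and the 3 largest changes each way, and named more briefly were, of each partner list, the genes with the 2 smallest p-values or the 2 highest levels. Other genes given by library, and the ratios, were chosen after values were seen. The values of 1 carrier are not reported here. The carriers, gene lists, marker lists and motifs were chosen with earlier results of these data known. Alternative tests were edgeR's exact and likelihood ratio tests, DESeq2 1.42.0 and limma 3.58.1 voom with sample quality weights. Other settings were robust fitting, RLE size factors, library totals, other filters, a replicate block and leaving libraries out.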

Additional observations from a re-analysis of the deposited data

Results flagged for a closer look

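In 5 of 70 groups of 4 libraries (35 carriers in Folfiri and in Vehicle), 1 library stood apart from the other 3 by a gap that filled most of the range of the group, and chance alone gives such a gap in about 1 group of 20. Slc25a47 did so in both groups, with 3.68 CPM in Folfiri 4 against 2.47 to 2.66 CPM in the other Folfiri libraries, and 3.53 CPM in Vehicle 3, the rest of Vehicle lying at 1.43 to 1.61 CPM. Vehicle 2 stood high in 2 carriers. Compared with Vehicle 1, 3 and 4, it held 54.9 CPM of the glutathione carrier Slc25a39 against 43.9 to 44.1 CPM and 8.39 CPM of the ATP-Mg carrier Slc25a24 against 5.23 to 5.71 CPM. The oxoglutarate carrier Slc25a11 was low in Vehicle 3, at 319 CPM, with 385 to 391 CPM in Vehicle 1, 2 and 4.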

How the results depend on the processing

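Carriers called stayed at 0 under every alternative run. Genes called were 86 by the exact test, 101 by the likelihood ratio test, 77 by DESeq2, and 3 each by limma voom, library totals alone and the replicate block, against 1, and 0 to 1 when any 1 library was left out. The replicate numbers were not taken to pair the animals. Same-numbered libraries deviated together at r = 0.300, 0.136, 0.0557 and 0.196, all positive. Folfiri 3 and Folfiri 4 correlated best with other numbers than their own, so these values do not decide whether animals were paired. With the replicate block, 1663 genes had an unadjusted p under 0.05 against 1224, and the lowest adjusted p of a carrier was 0.187. Carriers with an unadjusted p under 0.05 numbered 5, also with the block. By DESeq2 they numbered 6, with Slc25a3 added. By library totals alone they numbered 4, with Slc25a45 in and Slc25a42 and Slc25a22 out. By limma voom they numbered 5, with Slc25a30 in place of Slc25a37. With 1 library left out they numbered 1 to 6. There were 3 without Folfiri 1 (Slc25a25, Slc25a34, Slc25a42) and 1 without Vehicle 2 (Slc25a36). Without both, a choice made after seeing the data, 0 genes were called and 4 carriers had such a p (Slc25a1, Slc25a25, Slc25a30 and Slc25a36). The carriers' median of −0.02 was 0.10 with library totals as the only scaling, where all genes had a median of 0.14 and gave 24 positive and 12 negative carriers, and −0.07 to 0.06 with 1 library left out. Of 323 single-gene values, 18 changed sign. Slc25a11 was at −0.0082 by DESeq2, −0.0080 with RLE factors, −0.0015 with the block and −0.0725 to 0.0839 with 1 library left out. Slc25a46 was at 0.061 by library totals and −0.31 to 0.0156 with 1 left out. Left-out libraries gave −0.38 to 1.39 for Slc25a1, −0.34 to 0.38 for Slc25a10 and −0.52 to 0.18 for Slc25a35, which was at 0.22 without both libraries. The cause was not tested. Carriers with few reads (Slc25a53, Slc25a13, Slc25a45) are limited by counting error as well.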
